A study of Mus musculus with 3 samples.

Results

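The fatty acid binding proteins are small cytoplasmic proteins of the intracellular lipid binding protein family, and the 7 genes described here are Fabp1 to Fabp7. They were taken as a list by family name, chosen with earlier results of these data known. The 3 libraries of messenger RNA from mouse small intestine held 24086 genes with a symbol. Each of the 7 genes was represented by 1 deposited transcript with a usable value in every library, so that the gene value and the transcript value were the same. The cells came from villi of the upper small intestine, taken from C57BL/6 mice, and were dispersed and sorted by flow cytometry. The GIP-GFP library held cells of a GFP reporter for GIP, the incretin hormone made by K cells of the gut. The Ngn3-TOMATO library held tomato-positive cells of male mice that carried Ngn3-Cre and ROSA26-LoxP-STOP-LoxP-tomato, which marks cells that expressed Neurogenin 3 or descend from such cells. The Ngn3-negative library held the cells without tomato from the same cross, described in the labels as epithelium other than enteroendocrine cells. Cells staining for CD45, a blood cell marker, were left out of both tomato sorts, and no such gate is stated for the GIP-GFP sort. Every library was a pool of equal amounts of RNA from individual samples, with 1 library a group. No library was therefore repeated and no test between groups was possible. The number of mice in a pool, the ages of the mice and the sex of the GIP-GFP mice are not given in the sources used here.

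Fatty acid binding proteins hold long-chain fatty acids and related ligands in a barrel-shaped pocket and carry them between membranes, enzymes and the nucleus. Absorptive enterocytes are known for abundant FABP1 (the liver form) and FABP2 (the intestinal form), which bind fatty acids from dietary fat inside the cell. FABP6, the ileal form, binds bile acids. FABP3 is named for heart, FABP4 for adipocytes, FABP5 for epidermis and FABP7 for brain, and FABP4 and FABP5 are also found in macrophages and endothelium.

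Levels are the deposited FPKM, a read density corrected for transcript length, summed per gene and put on a common scale, by 1 divisor for all libraries, on which the library totals average 1000000. They are called scaled FPKM. Read bases on the listed transcripts were 592.1 Mb in GIP-GFP and 1380 Mb in Ngn3-TOMATO, against 1030 Mb in Ngn3-negative. All 14 enteroendocrine marker genes were at least 2-fold higher in both GIP-GFP and Ngn3-TOMATO than in Ngn3-negative, with summed levels of 15868 in GIP-GFP and 25224 in Ngn3-TOMATO, against 405.0 in Ngn3-negative. Goblet cell markers summed to 5497 in GIP-GFP and 175280 in Ngn3-TOMATO, against 31730 in Ngn3-negative. Paneth cell markers summed to 2391 in GIP-GFP and 27993 in Ngn3-TOMATO, against 4966 in Ngn3-negative, so that the Ngn3-TOMATO library carried the highest level of both. Enterocyte markers summed to 3055 in GIP-GFP and 2831 in Ngn3-TOMATO, against 9555 in Ngn3-negative. The enterocyte marker Sis was listed at 0 in all 3 libraries, so a listed 0 does not by itself show that a gene was silent.

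Fabp2 and Fabp1 were the most abundant family members in every library. Fabp2 ranked 11th among all genes in GIP-GFP, 27th in Ngn3-TOMATO and 2nd in Ngn3-negative. Below these genes the order differed between libraries. In GIP-GFP the order was Fabp2, Fabp1, Fabp5, Fabp6, Fabp4, Fabp3 and Fabp7, and Fabp5 ranked 20th of 24040 genes. In Ngn3-TOMATO it was Fabp2, Fabp1, Fabp6, Fabp5, Fabp3, Fabp4 and Fabp7, and Fabp5 ranked 852nd of 23940 genes. In Ngn3-negative it was Fabp2, Fabp1, Fabp6, Fabp5, Fabp3, Fabp4 and Fabp7, and Fabp5 ranked 9716th of 23972 genes. Neighbours in these orders had 95% counting intervals that did not overlap, apart from Fabp3 and Fabp7 in GIP-GFP, and Fabp3 with Fabp4 and Fabp4 with Fabp7 in Ngn3-negative. These intervals come from the deposited limits and cover counting error only. Reads carried no molecular identifiers, and the intervals say nothing of the spread between mice or sorts.

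**Figure D1:**
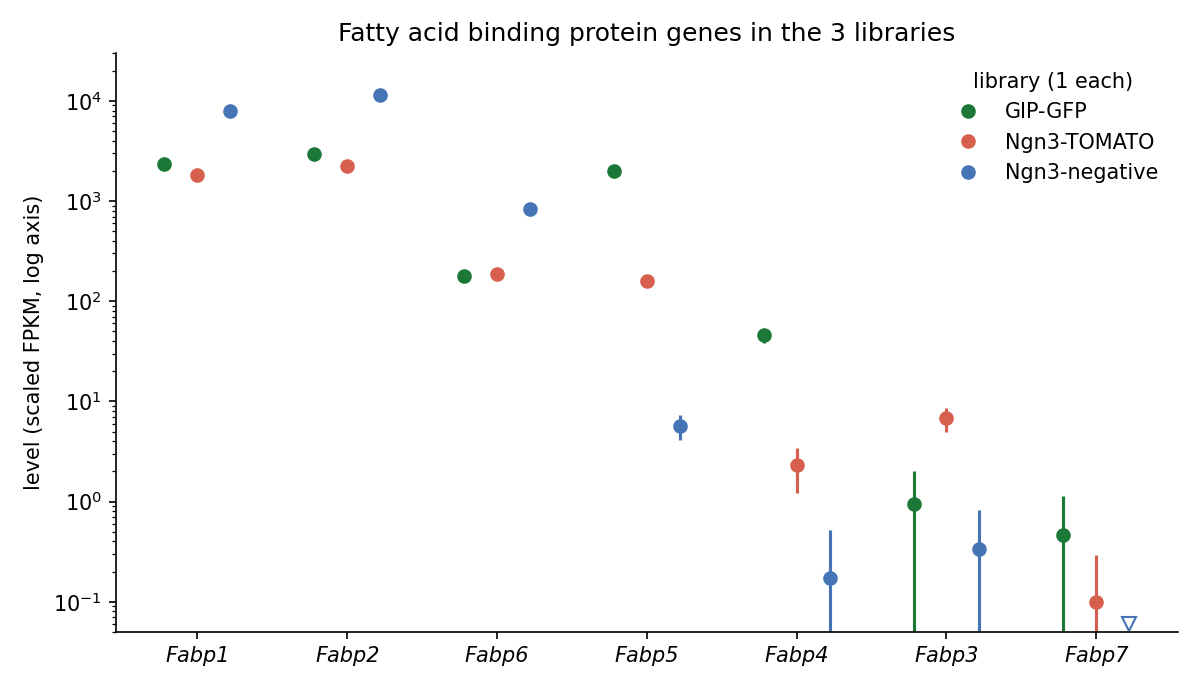
Level of each fatty acid binding protein gene in the 3 libraries, in scaled FPKM on a log axis, with bars for the 95% counting interval and an open triangle for a listed 0. Fabp1, Fabp2 and Fabp6 sit highest in Ngn3-negative, whereas Fabp5 reaches 1978 scaled FPKM in GIP-GFP and 159 in Ngn3-TOMATO, against 5.69 in Ngn3-negative.

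Ratios between libraries were taken as log2 after adding 1 scaled FPKM to each value, for genes that reached 1 scaled FPKM in either library of the pair. This scale understates the ratio of low genes. Between GIP-GFP and Ngn3-negative, 5 of the 7 members passed that filter. Fabp4 and Fabp5 were at least 2-fold higher in GIP-GFP, a difference shared by 21.1% of the 13357 genes tested. Fabp1, Fabp2 and Fabp6 were at least 2-fold lower, as were 13.9% of genes. Between Ngn3-TOMATO and Ngn3-negative, 6 members passed, and Ngn3-TOMATO was at least 2-fold higher for Fabp3, Fabp4 and Fabp5, against 19.5% of 13239 genes. Fabp1, Fabp2 and Fabp6 were at least 2-fold lower there, against 10.03% of genes. Between GIP-GFP and Ngn3-TOMATO, 6 members passed. Fabp4 and Fabp5 were at least 2-fold higher in GIP-GFP, against 8.09% of 13574 genes, and Fabp3 was at least 2-fold lower, against 8.81%. Against Ngn3-negative, Fabp3 and Fabp4 passed the filter only through the library where they were high, and so did Fabp3 in GIP-GFP against Ngn3-TOMATO, so that a difference was built into their passing. The 3 comparisons share libraries and are not independent of each other. The median log2 ratio of all genes tested was 0.07 for GIP-GFP over Ngn3-negative, 0.04 for Ngn3-TOMATO over Ngn3-negative and 0.08 for GIP-GFP over Ngn3-TOMATO. Of the genes past 2-fold, 60.4% were higher in the first comparison and 66.0% in the second. With libraries scaled to equal totals these shares were 50.7% and 53.0%, and the medians of all genes were -0.14 and -0.20.

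**Figure D2:**
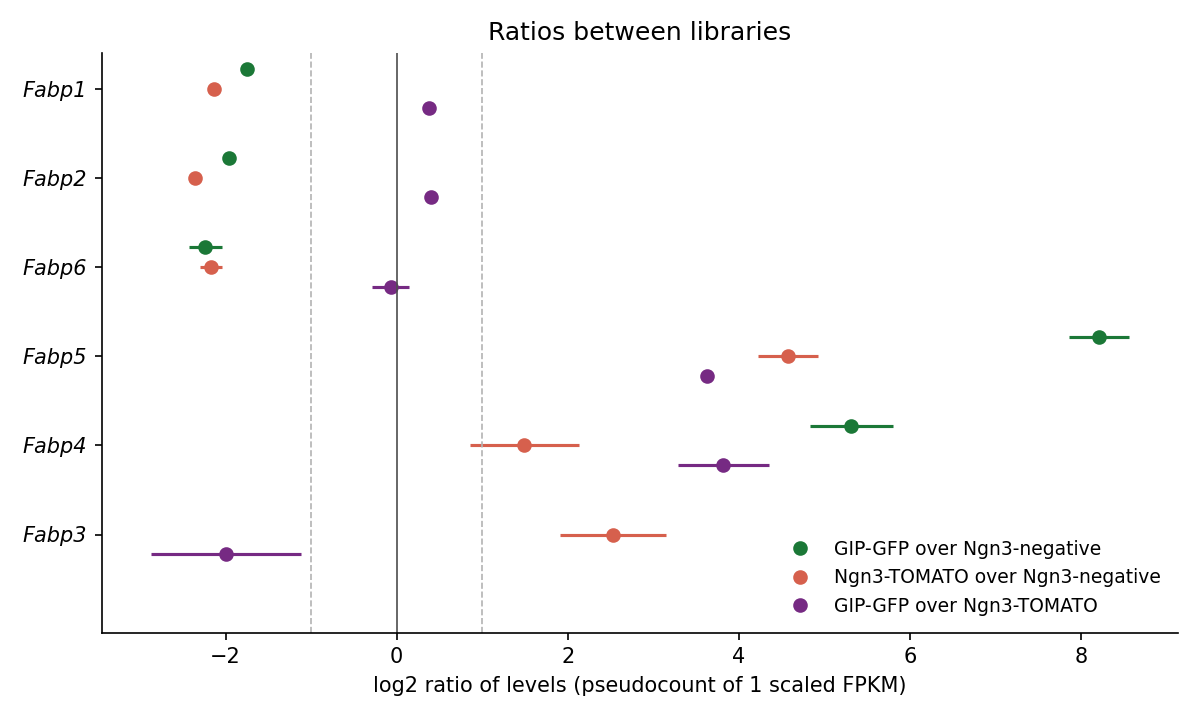
Log2 ratio of each member in each of the 3 comparisons where it passed the filter, with the 95% counting interval and dashed lines at 2-fold. Fabp5 stands at 8.21 for GIP-GFP over Ngn3-negative and at 4.58 for Ngn3-TOMATO over Ngn3-negative, whereas Fabp1, Fabp2 and Fabp6 lie between -1.75 and -2.35 in these comparisons.

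Fabp1 (transcript uc009cgh.1, mm10 chr6:71199888-71205023, plus strand) stood at 2347 scaled FPKM in GIP-GFP and 1799 in Ngn3-TOMATO, against 7881 in Ngn3-negative. The Ngn3-negative library was the highest and the reporter-positive libraries were close to each other. The log2 ratio of Fabp1 was -1.75 for GIP-GFP over Ngn3-negative (95% counting interval -1.79 to -1.70) and -2.13 for Ngn3-TOMATO over Ngn3-negative (-2.16 to -2.10). Between GIP-GFP and Ngn3-TOMATO it was 0.38 (0.33 to 0.43), a difference under 2-fold and outside the counting error. In pooled bulk RNA, fewer cells of a type and less RNA per cell cannot be told apart.

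Fabp2 (uc008rex.1, chr3:122895392-122899506, plus strand) stood at 2952 scaled FPKM in GIP-GFP and 2243 in Ngn3-TOMATO, against 11474 in Ngn3-negative. The order of the libraries was that of Fabp1. Its log2 ratio was -1.96 (-1.99 to -1.93) for GIP-GFP over Ngn3-negative, -2.35 (-2.38 to -2.33) for Ngn3-TOMATO over Ngn3-negative and 0.40 (0.36 to 0.43) for GIP-GFP over Ngn3-TOMATO. Enterocyte markers moved alongside these genes: of 13 measured in both libraries and past the filter, 11 were at least 2-fold lower in GIP-GFP than in Ngn3-negative, with a median log2 ratio of -2.05. Among all genes tested, 13.9% were at least 2-fold lower there. Alpi, intestinal alkaline phosphatase of the brush border, was at 228 scaled FPKM in GIP-GFP and 224 in Ngn3-TOMATO, against 1462 in Ngn3-negative. The part of enterocyte RNA in the Fabp1 and Fabp2 values was not tested.

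Set against other enterocyte genes within a library, the ratios were not constant. The level of Fabp2 relative to Alpi was 12.9 (95% counting interval 12.4 to 13.5) in GIP-GFP and 10.01 (9.74 to 10.3) in Ngn3-TOMATO, against 7.85 (7.75 to 7.95) in Ngn3-negative. Fabp1 relative to Apoa4, an apolipoprotein of chylomicrons, was 2.40 (2.32 to 2.49) in GIP-GFP and 2.60 (2.53 to 2.66) in Ngn3-TOMATO, against 1.39 (1.38 to 1.41) in Ngn3-negative. Both ratios were higher in the reporter-positive libraries, by more than the counting error, but Alpi is among the enterocyte markers furthest below Ngn3-negative. Apoa4 had the lowest log2 ratios over Ngn3-negative of the genes for triglyceride resynthesis and chylomicron assembly. They were -2.53 in GIP-GFP and -3.03 in Ngn3-TOMATO. The medians of that list were -1.75 and -1.29, against -1.75 and -2.13 for Fabp1. Fabp2 had a lower log2 ratio over Ngn3-negative than 6 of 13 enterocyte markers in GIP-GFP and than 7 of 12 in Ngn3-TOMATO. Fabp2 relative to Vil1, the brush border protein villin, was therefore lower in both: Vil1 was at 540 scaled FPKM in GIP-GFP and 634 in Ngn3-TOMATO, against 1386 in Ngn3-negative. Fabp1 relative to Fabp2 was 0.795 (0.767 to 0.822) in GIP-GFP and 0.802 (0.782 to 0.822) in Ngn3-TOMATO, against 0.687 (0.678 to 0.696) in Ngn3-negative. The GIP-GFP and Ngn3-TOMATO values could not be told apart and both lay above Ngn3-negative.

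The genes nearest to a member were sought by the distance over its log2 ratios to Ngn3-negative, among genes whose highest level was at least 10 scaled FPKM and within 4-fold of the member's. This is a likeness over 3 libraries and no more. For Fabp1 the nearest of 60 candidates were Fabp2, Spink1, Reg3b, Reg1 and Prap1. For Fabp2 the nearest of 35 were Fabp1, Prap1, Apoa1, Reg3b and Apoa4. Among candidates of like level, each of Fabp1 and Fabp2 was thus the other's nearest gene, at a distance of 0.31 on the log2 scale. Genes of lower level could lie nearer. Dgat1, an enzyme of triglyceride synthesis, had log2 ratios over Ngn3-negative of -1.87 in GIP-GFP and -2.11 in Ngn3-TOMATO. Those of Fabp1 were -1.75 and -2.13.

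The proximal promoters of the members lower in the reporter-positive libraries are shown because these 3 genes were lower together. RefSeq promoter sequences on GRCm38.p6, the assembly that mm10 names, were found for 5 of the 7 members, namely Fabp1, Fabp2, Fabp3, Fabp6 and Fabp7. Each runs 250 bases before to 50 bases after the gene start, 5′ to 3′ on the gene's strand. Capitals mark matches, on either strand, to TATAAA (bound by the basal factor TBP), AGATAA (zinc finger factors Gata4 and Gata6), CAAAGTCCA (the nuclear receptor HNF4), AGGTCA (the core element of many nuclear receptors) and TTTATNG (the CDX factors). The palindromic HNF1 element was searched as well. The windows are chr6:71199629-71199928 on the plus strand for Fabp1, chr3:122894822-122895121 on the plus strand for Fabp2 and chr11:43601513-43601812 on the minus strand for Fabp6.
Fabp1: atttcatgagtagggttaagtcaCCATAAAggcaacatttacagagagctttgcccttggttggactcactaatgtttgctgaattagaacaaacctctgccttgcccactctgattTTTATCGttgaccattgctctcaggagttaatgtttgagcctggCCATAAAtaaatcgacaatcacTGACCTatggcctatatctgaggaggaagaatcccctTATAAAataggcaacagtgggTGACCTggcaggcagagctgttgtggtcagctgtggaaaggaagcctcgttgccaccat
Fabp2: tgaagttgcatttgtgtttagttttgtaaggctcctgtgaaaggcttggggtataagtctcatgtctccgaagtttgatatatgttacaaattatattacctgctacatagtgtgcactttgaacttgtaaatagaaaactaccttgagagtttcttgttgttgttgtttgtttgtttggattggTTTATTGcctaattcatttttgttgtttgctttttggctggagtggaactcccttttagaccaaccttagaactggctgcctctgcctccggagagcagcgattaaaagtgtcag
Fabp6: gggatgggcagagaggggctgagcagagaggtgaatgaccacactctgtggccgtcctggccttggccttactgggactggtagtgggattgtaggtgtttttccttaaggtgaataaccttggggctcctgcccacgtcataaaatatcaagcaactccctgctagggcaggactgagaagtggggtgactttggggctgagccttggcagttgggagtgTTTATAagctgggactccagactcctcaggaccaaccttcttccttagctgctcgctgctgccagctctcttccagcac

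The Fabp1 window held TATAAA from base -30, AGGTCA on the opposite strand from -67 and -9, and TTTATNG matches from -227, -133 and -89, the first and last of these on the opposite strand. The Fabp2 window held TTTATNG from -65, and the Fabp6 window held TATAAA on the opposite strand from -29. No marked matches overlapped. The windows of Fabp3 and Fabp7 held no match but AGGTCA on the opposite strand from -171 in Fabp7. Among all 32851 promoters in the table, 13.6% held TATAAA, 11.2% AGATAA, 0.475% CAAAGTCCA, 0.00913% the HNF1 element, 16.3% AGGTCA and 10.9% TTTATNG. No single motif was found in all 3 windows. These are matches of letters and not binding sites.

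Fabp6 (uc007imt.1, chr11:43596112-43601511, minus strand), the bile acid carrier, stood at 177 scaled FPKM in GIP-GFP and 186 in Ngn3-TOMATO, against 837 in Ngn3-negative. The reporter-positive libraries had overlapping counting intervals and both lay below Ngn3-negative. The log2 ratio of Fabp6 was -2.24 (-2.43 to -2.04) for GIP-GFP over Ngn3-negative and -2.16 (-2.29 to -2.04) for Ngn3-TOMATO over Ngn3-negative. For GIP-GFP over Ngn3-TOMATO it was -0.07 (-0.29 to 0.15), an interval that spans 0. Per 1000 units of Fabp2, Fabp6 was 59.9 (52.1 to 67.8) in GIP-GFP and 82.9 (76.3 to 89.5) in Ngn3-TOMATO, against 72.9 (69.8 to 76.1) in Ngn3-negative.

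The nearest of 959 candidates to Fabp6 were Slc51a, Ces2e, Cyp4f14, Reg1 and Arg2. Slc51a and Slc51b encode the subunits of the transporter that exports bile acids across the basolateral membrane. Slc51a was at 58.2 scaled FPKM in GIP-GFP and 57.9 in Ngn3-TOMATO, against 279 in Ngn3-negative. Slc51b was at 58.7 in GIP-GFP and 50.6 in Ngn3-TOMATO, against 251 in Ngn3-negative. Of the list of genes for ileal bile acid handling, 6 of the 7 past the filter were at least 2-fold lower in GIP-GFP than in Ngn3-negative (median log2 ratio -1.69), and 5 of 8 were in Ngn3-TOMATO (median -1.41). Among all genes tested, 13.9% were that much lower in GIP-GFP and 10.03% in Ngn3-TOMATO. For GIP-GFP over Ngn3-TOMATO, 0 of 7 passed 2-fold in either direction. Slc10a2, the apical bile acid transporter of the distal gut, was at 0.669 scaled FPKM in GIP-GFP and 1.74 in Ngn3-TOMATO, against 4.37 in Ngn3-negative. Fgf15, the ileal hormone that bile acids induce, was at 1.02 in GIP-GFP and 0.834 in Ngn3-TOMATO, against 4.37 in Ngn3-negative. Both were far below Fabp6 in all 3 libraries, on this scale of levels per length.

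Fabp5 (uc008opg.1, chr3:10012606-10016610, plus strand), the epidermal form, was the member with the widest range. It stood at 1978 scaled FPKM in GIP-GFP and 159 in Ngn3-TOMATO, against 5.69 in Ngn3-negative. Ngn3-negative was the lowest library here and the highest for Fabp1 and Fabp2, and no counting intervals of Fabp5 overlapped. The deposited limits imply about 10203 fragments in GIP-GFP and 1931 in Ngn3-TOMATO, against 50 in Ngn3-negative. The log2 ratio of Fabp5 was 8.21 (7.86 to 8.56) for GIP-GFP over Ngn3-negative, the 2nd highest of 13357 genes. It was 4.58 (4.23 to 4.93) for Ngn3-TOMATO over Ngn3-negative and 3.63 (3.56 to 3.70) for GIP-GFP over Ngn3-TOMATO. Without a pseudocount the GIP-GFP level was 348 times that of Ngn3-negative (264 to 469), and 12.5 times that of Ngn3-TOMATO (11.9 to 13.1).

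Gip, the hormone gene by whose reporter the GIP-GFP cells were sorted, also ran in this order. Per 1000 units of Gip, Fabp5 was 8.01 (7.85 to 8.17) in GIP-GFP and 5.54 (5.29 to 5.79) in Ngn3-TOMATO, against 7.62 (5.45 to 9.79) in Ngn3-negative. The GIP-GFP and Ngn3-negative values could not be told apart, although Fabp5 itself differed 348-fold between them. The Ngn3-TOMATO value was lower than that of GIP-GFP by more than the counting error. The nearest of 320 candidates to Fabp5 were Rgs4, Isl1, Rbp4, Rfx6 and Pax6. Isl1, Rfx6 and Pax6 are transcription factors of endocrine cells of gut and pancreas, and Rbp4 is the plasma carrier of retinol. Isl1 was at 791 scaled FPKM in GIP-GFP and 151 in Ngn3-TOMATO, against 3.32 in Ngn3-negative, and Rfx6 was at 1092 in GIP-GFP and 211 in Ngn3-TOMATO, against 6.77 in Ngn3-negative. On the log2 scale the nearest gene, Rgs4, lay 0.62 from Fabp5.

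**Figure D3:**
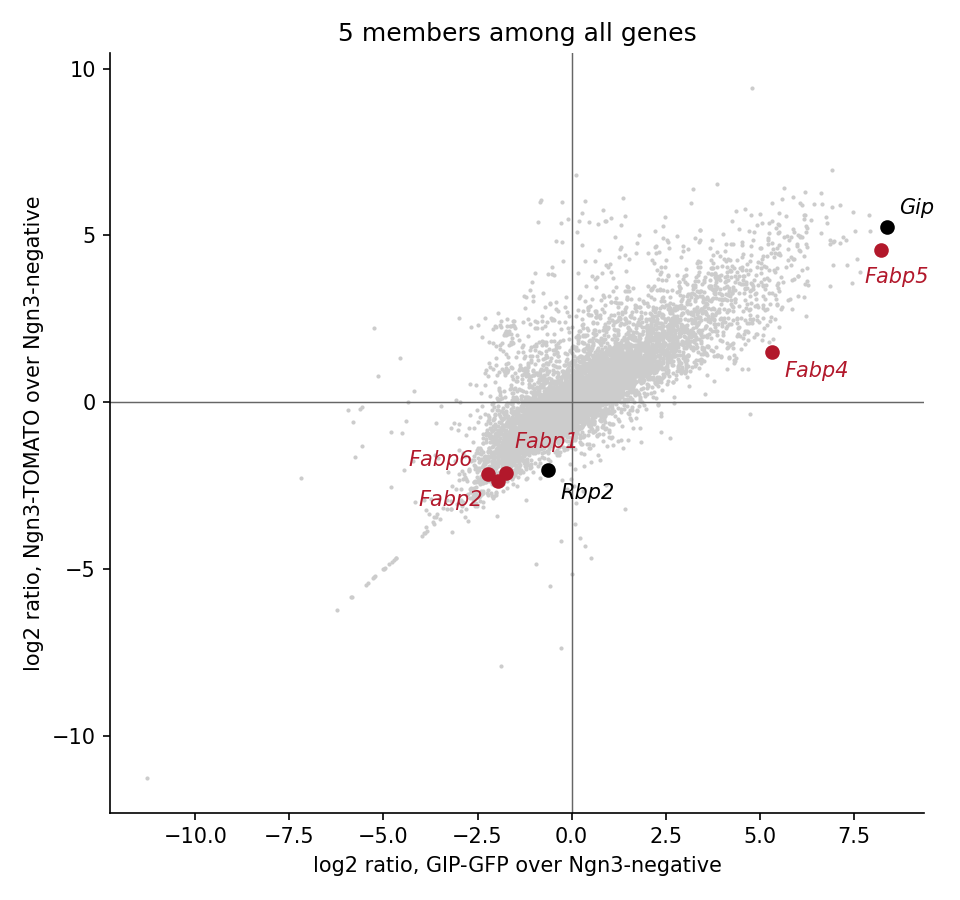
All genes past the filter, by log2 ratio of GIP-GFP over Ngn3-negative and of Ngn3-TOMATO over Ngn3-negative, with 5 members, the relative Rbp2 and Gip marked. Fabp5 lies at the upper right at 8.21 and 4.58, and Fabp1, Fabp2 and Fabp6 lie at the lower left. The axes share the Ngn3-negative library, so a trend along the diagonal is built in.

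Reads of Fabp5 can be shared with near-identical copies. Of the 938 stretches of 50 bases in the annotated Fabp5 transcript, 198 (21.1%) also occurred in transcripts of other genes, 184 of them in the processed pseudogene Gm6166. That pseudogene has no transcript among the deposited models. The value of Fabp5 is uncertain to that extent, and the sources used here do not state how such reads were assigned. Fabp1, Fabp2, Fabp4, Fabp6 and Fabp7 shared 0 such stretches with other genes.

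Fabp4 (uc008opl.2, chr3:10204343-10208576, minus strand), the adipocyte form, stood at 45.7 scaled FPKM in GIP-GFP and 2.30 in Ngn3-TOMATO, against 0.173 in Ngn3-negative. GIP-GFP was the highest and Ngn3-negative the lowest, as for Fabp5, at a much lower level. The limits imply about 148 fragments in GIP-GFP and 18 in Ngn3-TOMATO, against 1 in Ngn3-negative. The log2 ratio of Fabp4 was 5.31 (4.83 to 5.80) for GIP-GFP over Ngn3-negative and 3.82 (3.29 to 4.35) for GIP-GFP over Ngn3-TOMATO. For Ngn3-TOMATO over Ngn3-negative it was 1.49 (0.86 to 2.13), and it fell under 2-fold, at 0.50, with a pseudocount of 5. Without a pseudocount the GIP-GFP level was 19.8 times that of Ngn3-TOMATO (12.1 to 34.4). Against the 1 fragment of Ngn3-negative it was 264 times as high, with a counting interval of 46.6 to 10489. Per 1000 units of Fabp5, Fabp4 was 23.1 (19.3 to 26.9) in GIP-GFP and 14.5 (7.64 to 21.4) in Ngn3-TOMATO, which overlapped.

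The nearest of 8763 candidates to Fabp4 were Pcsk2os2, Ecel1, Gm9765, AW551984 and 1700007K13Rik, all near the floor in Ngn3-negative. Ecel1, an endothelin-converting enzyme-like protein, was at 62.7 scaled FPKM in GIP-GFP and 4.86 in Ngn3-TOMATO, against 0.570 in Ngn3-negative. FABP4 and FABP5 are known from adipocytes, macrophages, endothelium and epidermis, and marker genes of those and other cells were read in the same libraries. Of 7 adipocyte markers, Adipoq, Plin1, Plin4, Lep, Retn and Cfd were listed at 0 in every library. Cidec was at 10.1 in GIP-GFP and 8.29 in Ngn3-TOMATO, against 63.2 in Ngn3-negative. The 10 endothelial markers summed to 18.1 in GIP-GFP and 28.8 in Ngn3-TOMATO, against 8.13 in Ngn3-negative. Of these, 3 passed the filter against Ngn3-negative, with 2 at least 2-fold higher in GIP-GFP (median log2 ratio 1.16) and 3 in Ngn3-TOMATO (median 1.31). Pecam1, an endothelial adhesion molecule, was at 2.01 in GIP-GFP and 9.92 in Ngn3-TOMATO, against 0.350 in Ngn3-negative. Kdr, the VEGF receptor of endothelium, was listed at 0 in GIP-GFP and Ngn3-TOMATO and at 0.0447 in Ngn3-negative. The 10 markers of macrophages and dendritic cells summed to 19.2 in GIP-GFP and 28.6 in Ngn3-TOMATO, against 22.1 in Ngn3-negative, with C1qb listed at 0 in all 3 and Csf1r at 0.203, 0.0912 and 0.0793 in the same libraries. Lyz2, the lysozyme of myeloid cells, had the library order of Fabp4 and Fabp5, at 10.8 in GIP-GFP and 4.55 in Ngn3-TOMATO, against 2.12 in Ngn3-negative. Against Ngn3-negative, 1 of the 4 macrophage markers past the filter was at least 2-fold higher in GIP-GFP and 2 were lower. The 5 markers of squamous epithelium summed to 11.4 in GIP-GFP and 7.65 in Ngn3-TOMATO, against 6.19 in Ngn3-negative, mostly from Krt10 at 10.9 in GIP-GFP and 5.72 in Ngn3-TOMATO, against 4.30 in Ngn3-negative. Lymphocyte markers were highest in GIP-GFP, with sums of 364 in GIP-GFP and 62.4 in Ngn3-TOMATO, against 155 in Ngn3-negative. The 5 glial markers summed to 19.9 in GIP-GFP and 6.10 in Ngn3-TOMATO, against 2.68 in Ngn3-negative. The part of RNA from any of these cell types in the Fabp4 and Fabp5 values was not tested.

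Fabp5 and Fabp4 lie on chromosome 3, 187.7 kb apart, with the family genes Pmp2, Fabp9 and Fabp12 in the same neighbourhood. Within 500 kb of Fabp5 or Fabp4, 14 genes had a value and 10 of them reached 1 scaled FPKM in some library. In GIP-GFP against Ngn3-negative, Fabp5, Fabp4 and Gm9833 were at least 2-fold higher and Pag1, Slc10a5 and Chmp4c were at least 2-fold lower. Pmp2, the myelin P2 form, was at 0.80 scaled FPKM in GIP-GFP and 0.0492 in Ngn3-TOMATO, against 0 in Ngn3-negative. Fabp9, the testis form, was listed at 0 in all 3 libraries, and Fabp12 reached 0.186 at most, in GIP-GFP. Impa1, an inositol phosphatase just beyond Fabp12, was at 144 in GIP-GFP and 110 in Ngn3-TOMATO, against 125 in Ngn3-negative. Pmp2 and Fabp12 thus had the library order of Fabp5 and Fabp4 at levels under the filter. The counting interval of each Fabp12 ratio spans 0, as does that of Pmp2 in Ngn3-TOMATO over Ngn3-negative (-0.12 to 0.26). Of the stretches of 50 bases in Pmp2, 86.6% also occurred in the overlapping gene Gm37389. Gm9833, past the filter, had the library order of Fabp5 and Fabp4 too, at 14.9 in GIP-GFP and 8.33 in Ngn3-TOMATO, against 4.37 in Ngn3-negative.

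**Figure D4:**
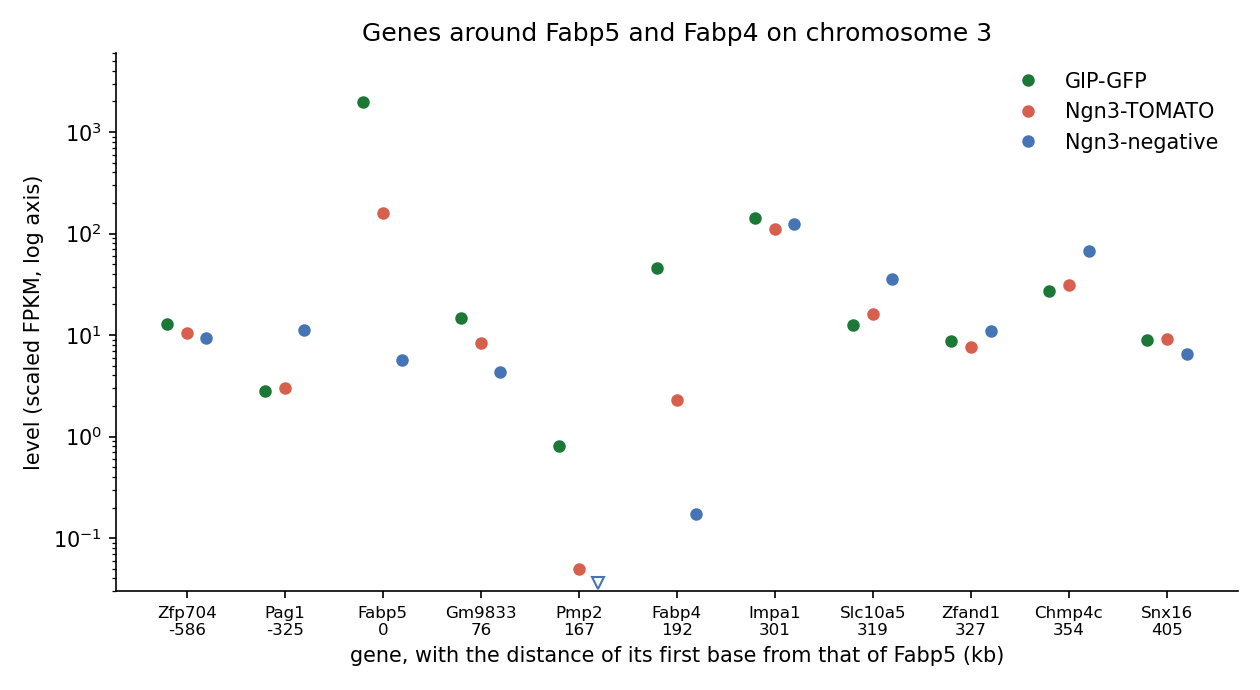
Levels of the genes around Fabp5 and Fabp4 in the 3 libraries, in scaled FPKM on a log axis, for the 11 genes that reached 0.5 scaled FPKM. Genes stand in map order with the distance in kb from Fabp5 under each name, and the open triangle marks a listed 0. Fabp5 and Fabp4, 187.7 kb apart, fan out between libraries, whereas Impa1 lies between 110 and 144 scaled FPKM in all 3.

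Fabp3 (uc008uzd.1, chr4:130308778-130315463, plus strand), the heart form, was low everywhere and highest in Ngn3-TOMATO. It stood at 0.941 scaled FPKM in GIP-GFP and 6.75 in Ngn3-TOMATO, against 0.339 in Ngn3-negative, on about 3, 53 and 2 implied fragments in these libraries. The log2 ratio of Fabp3 was 2.53 (1.91 to 3.15) for Ngn3-TOMATO over Ngn3-negative and -2.0 (-2.88 to -1.12) for GIP-GFP over Ngn3-TOMATO. With a pseudocount of 5 the last of these was -0.98. Without a pseudocount the Ngn3-TOMATO level was 19.9 times that of Ngn3-negative (5.24 to 168), and the GIP-GFP level was 0.139 times that of Ngn3-TOMATO (0.0279 to 0.430). A difference between GIP-GFP and Ngn3-negative was not detectable at this depth. Several marker lists also had their highest sum in Ngn3-TOMATO. Of these, the goblet, Paneth and tuft lists and that of macrophages and dendritic cells summed lower in GIP-GFP than in Ngn3-negative. The list of macrophages and dendritic cells was highest in Ngn3-TOMATO only through C1qa. That gene was at 0.175 in GIP-GFP and 11.01 in Ngn3-TOMATO, against 0.0855 in Ngn3-negative. Its partner genes C1qb and C1qc were listed at 0 in Ngn3-TOMATO. The tuft list was at 68.2 in GIP-GFP and 453 in Ngn3-TOMATO, against 226 in Ngn3-negative. The enteroendocrine and endothelial lists summed higher in GIP-GFP than in Ngn3-negative. Enteroendocrine markers summed to 15868 in GIP-GFP and 25224 in Ngn3-TOMATO, against 405.0 in Ngn3-negative. Chga, a granule protein of enteroendocrine cells, was at 330 in GIP-GFP and 9039 in Ngn3-TOMATO, against 128 in Ngn3-negative. It was the 1 enteroendocrine marker of 14 at least 2-fold lower in GIP-GFP than in Ngn3-TOMATO, against 8.81% of all genes. The sum hides that 7 of the 14 were at least 2-fold higher in GIP-GFP (median log2 ratio 0.92), against 8.09% of all genes. The part of any of these cells in the Fabp3 value was not tested.

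The nearest of 3183 candidates to Fabp3 were Dpysl3, Insrr, Tmem158, Itgb7 and Lonrf1. Insrr, the insulin receptor-related receptor, was at 2.03 scaled FPKM in GIP-GFP and 13.1 in Ngn3-TOMATO, against 1.26 in Ngn3-negative. Of the 774 stretches of 50 bases in the annotated Fabp3 transcript, 289 (37.3%) occurred in transcripts of other genes. These were 226 in the pseudogene Fabp3-ps1, 32 in Zcchc17 and 31 in Gm10570, which overlap Fabp3 on the opposite strand. No strand-marking step is stated, so reads of Fabp3 and Zcchc17 cannot be told apart where they overlap. Zcchc17 was at 27.3 scaled FPKM in GIP-GFP and 25.9 in Ngn3-TOMATO, against 29.6 in Ngn3-negative, and so did not follow Fabp3. Fabp7 (uc007fct.1, chr10:57784923-57788450, plus strand), the brain form, was at 0.468 in GIP-GFP and 0.0984 in Ngn3-TOMATO and was listed at 0 in Ngn3-negative. With about 2, 1 and 0 implied fragments, no ratio is given for it.

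The make-up of the family differed between the libraries. The 7 genes summed to 7500 scaled FPKM in GIP-GFP and 4395 in Ngn3-TOMATO, against 20197 in Ngn3-negative, which were 0.710%, 0.410% and 2.23% of the summed gene levels of these libraries. The share of Gip in the same totals was 23.4% in GIP-GFP and 2.67% in Ngn3-TOMATO, against 0.0824% in Ngn3-negative. Fabp5 made up 26.4% (25.9 to 26.9) of the family sum in GIP-GFP and 3.61% (3.45 to 3.78) in Ngn3-TOMATO, against 0.0282% (0.0202 to 0.0361) in Ngn3-negative. Fabp2 made up 39.4% in GIP-GFP and 51.03% in Ngn3-TOMATO, against 56.8% in Ngn3-negative. Fabp1 made up 31.3% in GIP-GFP and 40.9% in Ngn3-TOMATO, against 39.0% in Ngn3-negative. Shares within a library do not depend on how libraries are scaled to each other. Fabp5 relative to Fabp2 was 0.670 (0.651 to 0.689) in GIP-GFP and 0.0708 (0.0674 to 0.0742) in Ngn3-TOMATO, against 0.000496 (0.000355 to 0.000636) in Ngn3-negative.

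**Figure D5:**
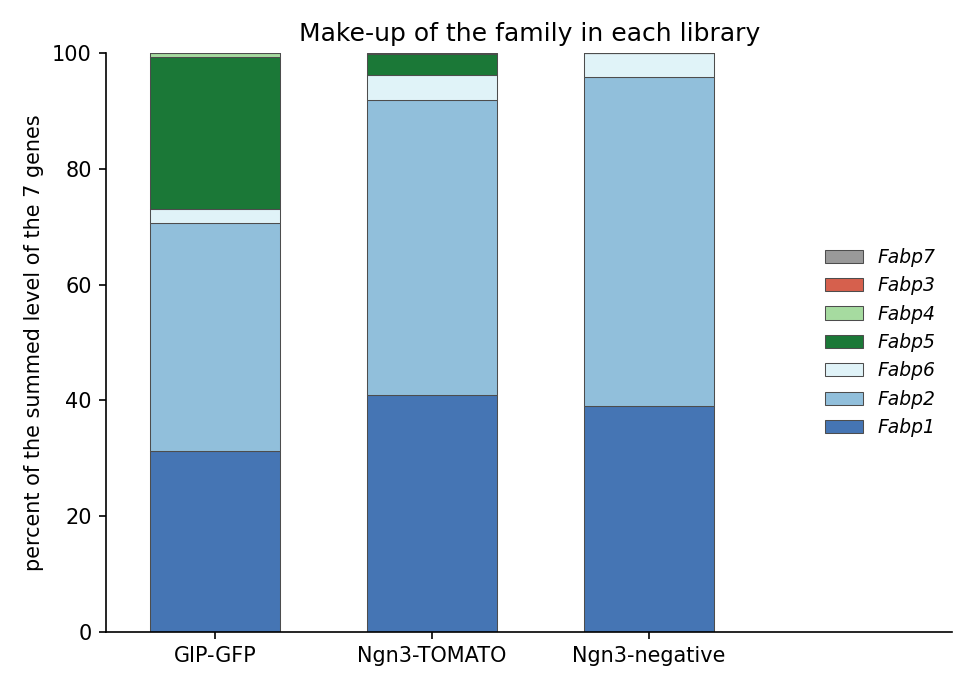
Share of each member in the summed level of the 7 genes, in percent, for the 3 libraries. Fabp5 takes 26.4% in GIP-GFP and 3.61% in Ngn3-TOMATO, against 0.0282% in Ngn3-negative, and Fabp1 and Fabp2 take most of the rest.

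Coding sequences of the members are related to different degrees. Fabp4 and Pmp2 shared 71.8% of aligned bases, Fabp3 and Fabp7 66.7%, Fabp3 and Fabp4 65.7%, and Fabp4 and Fabp5 61.1%. Fabp1 and Fabp6 shared 58.6%. Fabp1 and Fabp2, whose ratios between libraries were closest, shared 49.4%, and the lowest pair was Fabp5 and Fabp6 at 48.8%. Among the retinoid-binding relatives, Rbp2, the cellular retinol carrier of enterocytes, had the library order of Fabp2 with other ratios. It stood at 3123 scaled FPKM in GIP-GFP and 1179 in Ngn3-TOMATO, against 4841 in Ngn3-negative. The log2 ratio of Rbp2 was -0.63 (-0.66 to -0.60) for GIP-GFP over Ngn3-negative, against -1.96 for Fabp2. It was -2.04 for Ngn3-TOMATO over Ngn3-negative, against -2.35 for Fabp2, and 1.40 (1.36 to 1.44) for GIP-GFP over Ngn3-TOMATO, against 0.40 for Fabp2. The level of Fabp2 relative to Rbp2 was 0.945 (0.919 to 0.971) in GIP-GFP and 1.90 (1.86 to 1.95) in Ngn3-TOMATO, against 2.37 (2.34 to 2.40) in Ngn3-negative. Rbp7 was at 28.0 in GIP-GFP and 39.0 in Ngn3-TOMATO, against 108 in Ngn3-negative.

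The genes that act with the fatty acid binding proteins were read as lists. Of the genes for triglyceride resynthesis and chylomicron assembly, 14 of 22 were at least 2-fold lower in GIP-GFP than in Ngn3-negative and 0 were higher (median log2 ratio -1.75). In Ngn3-TOMATO 15 of 21 were lower and 0 higher (median -1.29). Among all genes tested, 21.1% were higher and 13.9% lower in GIP-GFP, and 19.5% and 10.03% in Ngn3-TOMATO. Set against Ngn3-TOMATO, GIP-GFP had 1 of 22 higher and 0 lower (median 0.12), against 8.09% and 8.81% of all genes. The 1 was Mogat1, at 1.85 scaled FPKM in GIP-GFP and 0.399 in Ngn3-TOMATO. It passed the filter only through GIP-GFP, and the counting interval of its log2 ratio spans 0 (-0.52 to 2.58). Apoa1, an apolipoprotein of chylomicrons and HDL, was at 1847 scaled FPKM in GIP-GFP and 1558 in Ngn3-TOMATO, against 9834 in Ngn3-negative. Dgat1, which makes triglyceride from diglyceride, was at 386 in GIP-GFP and 328 in Ngn3-TOMATO, against 1415 in Ngn3-negative. These run in the direction of Fabp1 and Fabp2.

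Fatty acid uptake and activation was divided. Against Ngn3-negative, 5 of 14 genes were higher and 5 lower in GIP-GFP (median -0.02), and 4 were higher and 4 lower in Ngn3-TOMATO (median 0.34). In GIP-GFP over Ngn3-TOMATO 1 was higher and 2 were lower. The shares of all genes higher and lower than Ngn3-negative were 21.1% and 13.9% in GIP-GFP, and 19.5% and 10.03% in Ngn3-TOMATO. Acsl5, an acyl-CoA synthetase of enterocytes, was at 285 scaled FPKM in GIP-GFP and 213 in Ngn3-TOMATO, against 761 in Ngn3-negative. Slc27a4, a fatty acid transporter with acyl-CoA synthetase activity, was at 137 in GIP-GFP and 118 in Ngn3-TOMATO, against 375 in Ngn3-negative. Scarb1, a receptor for HDL that also takes up lipids, ran the other way, at 434 in GIP-GFP and 101 in Ngn3-TOMATO, against 12.9 in Ngn3-negative. Acsl6, another acyl-CoA synthetase, was highest in Ngn3-TOMATO, at 24.3 in GIP-GFP and 87.9 in Ngn3-TOMATO, against 7.24 in Ngn3-negative.

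Receptors for fatty acids and related ligands ran in the direction of Fabp5. Of 6 past the filter, 5 were higher in GIP-GFP than in Ngn3-negative (median log2 ratio 4.16) and 6 were higher in Ngn3-TOMATO (median 3.38), with 0 lower in either. Ffar1, a receptor for long-chain fatty acids, was at 120.0 scaled FPKM in GIP-GFP and 66.7 in Ngn3-TOMATO, against 1.75 in Ngn3-negative. Ffar4, another such receptor, was at 145 in GIP-GFP and 49.2 in Ngn3-TOMATO, against 5.03 in Ngn3-negative. Ffar2, a receptor for short-chain fatty acids, differed from these, at 6.61 in GIP-GFP and 112 in Ngn3-TOMATO, against 4.995 in Ngn3-negative. From the same list, 3 receptors were higher and Ffar2 was lower in GIP-GFP than in Ngn3-TOMATO. Among all genes, 8.09% were higher and 8.81% lower there. Against Ngn3-negative, 21.1% of all genes were higher in GIP-GFP and 19.5% in Ngn3-TOMATO.

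Of the nuclear receptors and other regulators linked to these genes, 8 of 18 were at least 2-fold lower in GIP-GFP than in Ngn3-negative (median -0.70) and 7 of 18 in Ngn3-TOMATO (median -0.64), with 0 higher in either. Between GIP-GFP and Ngn3-TOMATO 1 was lower and 0 were higher. The shares of all genes lower than Ngn3-negative were 13.9% in GIP-GFP and 10.03% in Ngn3-TOMATO. Those of all genes higher were 21.1% and 19.5%. Between GIP-GFP and Ngn3-TOMATO 8.81% of all genes were lower and 8.09% higher. Creb3l3, a membrane-bound factor that drives apolipoprotein genes, was at 94.0 scaled FPKM in GIP-GFP and 67.4 in Ngn3-TOMATO, against 447 in Ngn3-negative. Hnf4g, an enterocyte nuclear receptor, was at 118 in GIP-GFP and 113 in Ngn3-TOMATO, against 407 in Ngn3-negative. Pparg, the receptor that drives Fabp4 in adipocytes, was at 5.01 in GIP-GFP and 11.5 in Ngn3-TOMATO, against 21.5 in Ngn3-negative, an order opposite to that of Fabp4.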

How the data were processed

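Messenger RNA of 3 sorted pools was sequenced, 1 library a group. Reads were handled with FastQC, TopHat 1.5.0 and Cufflinks on mm10, per the submitters' processing notes, with no Cufflinks version given in the sources used here. The authors deposited an FPKM with its limits, a coverage value and a status for 59120 UCSC transcripts, per the file headers. These FPKM totalled 10158743154 in GIP-GFP and 10735175189 in Ngn3-TOMATO, against 10373929724 in Ngn3-negative. These totals are far above those of usual FPKM, and the library term behind them is not stated.

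Transcripts were matched to GENCODE M21 by ends, length and overlap, and 51301 received a symbol. FPKM of transcripts of at least 200 bases were summed per symbol and divided by 7969.52. Values with a failed status were treated as missing. Limits were taken as 2 standard errors, and implied fragments as the squared ratio of value to standard error. Python 3.11.15, pandas 2.3.3, numpy 2.4.6, scipy 1.17.1, biopython 1.88 and matplotlib 3.10.9 were used, and the ratio script was tested on simulated data. Coordinates are 1-based.

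All 7 members are named, with the 5 nearest genes of each member that reached 1 scaled FPKM. From each gene list the most abundant genes past 2-fold are named, up to 4 a comparison, with defining markers and genes needed for checks. Slc10a2, Fgf15 and Pparg were named after their values were seen. The members and lists were chosen with earlier results of these data known. Some genes of these lists are not reported here. The alternatives were other transcript matches, pseudocounts, filters and library scalings.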

Additional observations from a re-analysis of the deposited data

How the results depend on the processing

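No paired analysis was possible because each group had 1 library, and for the same reason no library could be left out. The 17 member ratios gave 181 values under the alternatives. None changed sign, and 28 moved by more than their counting error. Their side of 2-fold changed for Fabp4 in Ngn3-TOMATO over Ngn3-negative (0.50) and for Fabp3 in GIP-GFP over Ngn3-TOMATO (-0.98), both with a pseudocount of 5. Fabp5 in GIP-GFP over Ngn3-negative ranged between 7.54 and 8.44 and Fabp4 between 3.29 and 8.04. The count of members lower in GIP-GFP than in Ngn3-TOMATO became 0 with a pseudocount of 5, and 0 when transcripts had to share both ends with the annotation, which matched 5 of 7 members and not Fabp2 or Fabp3. A pseudocount of 5 left 1792 genes past 2-fold upwards in GIP-GFP over Ngn3-negative, 1504 in Ngn3-TOMATO over Ngn3-negative and 598 in GIP-GFP over Ngn3-TOMATO, and those lower in the last numbered 667. These compare with 2824, 2581, 1098 and 1196 with a pseudocount of 1. List medians moved by more than the typical counting error of their genes in 123 of 701 values. Among medians past 2-fold, those that changed sign were the endothelial list in GIP-GFP over Ngn3-negative, 1.16 as reported and -0.032 with no filter on low values, and the glial list in GIP-GFP over Ngn3-TOMATO, 1.37 as reported and -0.21 with both ends shared. The endothelial median as reported covers the 3 of 10 genes past the filter, and with no filter it took in all 10. The glial median as reported covers 2 of 5 genes. The changes of sign were not tested further. Shares of the family sum were recomputed only with the most abundant transcript and with no length filter. In 42 of 42 values they stayed within their counting error. Each member had 1 transcript of at least 200 bases, so the first of these choices could not change a share. With both ends shared, no share was recomputed because members were missing. Ratios with no pseudocount were added after seeing the data. Depth limits Fabp3, Fabp4 and Fabp7 in Ngn3-negative, where 2, 1 and 0 fragments were implied.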

Other observations

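Genes of fatty acid oxidation and ketogenesis were also read. In GIP-GFP against Ngn3-negative, 1 of 18 was higher and 4 were lower (median log2 ratio -0.59). In Ngn3-TOMATO 0 were higher and 7 lower (median -0.82). Among all genes tested, 21.1% were higher and 13.9% lower in GIP-GFP, and 19.5% and 10.03% in Ngn3-TOMATO. The gene higher in GIP-GFP was Pdk4, a kinase that holds back pyruvate oxidation, at 434 scaled FPKM in GIP-GFP and 43.2 in Ngn3-TOMATO, against 36.1 in Ngn3-negative. Hadh, a dehydrogenase of mitochondrial beta-oxidation, was at 440.0 in GIP-GFP and 345 in Ngn3-TOMATO, against 948 in Ngn3-negative.

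Fatty acid binding proteins also carry endocannabinoids, and the genes of lipases and endocannabinoid turnover were divided. In GIP-GFP against Ngn3-negative, 4 of 12 were higher and 2 lower (median -0.29), and in Ngn3-TOMATO 4 of 13 were higher and 2 lower (median -0.11). Over all genes tested against Ngn3-negative, 21.1% were higher and 13.9% lower in GIP-GFP, and 19.5% and 10.03% in Ngn3-TOMATO. Cnr1, the cannabinoid receptor CB1, was at 348 scaled FPKM in GIP-GFP and 24.7 in Ngn3-TOMATO, against 0.720 in Ngn3-negative. Mgll, which degrades the endocannabinoid 2-arachidonoylglycerol, was highest in Ngn3-TOMATO, at 13.5 in GIP-GFP and 114 in Ngn3-TOMATO, against 4.42 in Ngn3-negative. Lipe, hormone-sensitive lipase, was at 24.5 in GIP-GFP and 16.8 in Ngn3-TOMATO, against 72.3 in Ngn3-negative.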
